A study of Mus musculus with 9 samples.

Results

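The phagocyte NADPH oxidase was followed through the transcripts of 6 genes: *Cybb* and *Cyba*, which encode the membrane flavocytochrome, *Ncf1* and *Ncf4*, which encode cytosolic organizers, *Rac2*, which encodes the GTPase of the active complex, and *Hvcn1*, which encodes the proton channel that works beside it. They were picked by symbol from the 50559 genes listed in the count data, and all 6 were among the 16618 genes with enough counts to be tested. The study asked how a mineralocorticoid receptor antagonist and a glucocorticoid act on myeloid cells of dystrophic muscle. RNA was sequenced from CD45+CD11b+ cells sorted from the quadriceps of *mdx* mice, which lack dystrophin and were 4.5 weeks old, after 7 days of treatment. The 3 groups were vehicle, spironolactone, which blocks the mineralocorticoid receptor, and prednisolone, a glucocorticoid, each with 3 libraries. All mice were *mdx*, so that no healthy muscle enters the comparisons, and the vehicle was the sweetened drinking solution in which both drugs were given. Each library held cells pooled from 3 pairs of quadriceps, males and females were used, and dead cells were not excluded at the sort, so that the spread between libraries is a spread between pools.

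The oxidase moves electrons from cytosolic NADPH across a membrane to oxygen and makes superoxide, which phagocytes use against microbes and which also acts as a signal in inflamed tissue. In resting cells the flavocytochrome lies apart from the cytosolic subunits, and the complex forms after phosphorylation of the organizers and exchange of GDP for GTP on Rac. In dystrophic muscle, macrophages and neutrophils carry this enzyme, and skeletal muscle fibers express NADPH oxidases as well.

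Library depth was even, with 31469815 to 32943512 counts on genes, and normalization factors (TMM) ran from 0.98 to 1.03. The 2 genes of the sorting gate were high in every library, *Ptprc* (CD45) at 545.1 to 659.6 CPM (counts of a gene scaled to the same total in every library, after TMM normalization) and *Itgam* (CD11b) at 977.9 to 1486.3 CPM. The summed level of 9 macrophage genes was 8521.1 to 11364.2 CPM. The sum of 12 neutrophil genes was 803.6 to 1631.1 CPM in 7 libraries, but 4999.5 CPM in vehicle 3 and 3716.8 CPM in spironolactone 3, and calls that were lost without this pair of libraries are named with their value. Of markers of other cell types, the sums were 3.88 to 12.3 CPM for 6 B cell genes and 3.92 to 11.6 CPM for 6 T and NK cell genes. They were 44.3 to 145.2 CPM for 3 endothelial genes and 36.7 to 299.8 CPM for 4 globin genes. For 4 skeletal muscle genes the sum was 160.1 to 510 CPM, and for 3 fibroblast genes it was 251.2 to 463 CPM.

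None of the 6 oxidase genes passed the test in any of the 3 comparisons (edgeR quasi-likelihood test, adjusted p under 0.05 over all genes tested). The largest differences lay between the drugs and concerned the flavocytochrome, whose subunits differed in opposite directions. *Cybb* was lower and *Cyba* was higher in all spironolactone libraries than in all prednisolone libraries, by 0.34 and 0.35 on the log2 scale. Of all genes tested, 30.3% were likewise apart between the drugs in CPM. In CPM, *Ncf1*, *Ncf4*, *Rac2*, and *Hvcn1* overlapped between the groups in every comparison.

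Per transcript length the order of the levels was *Cyba*, *Cybb*, *Rac2*, *Ncf1*, *Ncf4*, and *Hvcn1*. The mean level over all 9 libraries in TPM (counts divided by exon length and scaled to the same total in every library) was 1211.9 for *Cyba*, 715.5 for *Cybb*, 593.7 for *Rac2*, 453.7 for *Ncf1*, 279.2 for *Ncf4*, and 29 for *Hvcn1*. *Cyba* stood at rank 101 of 15346 tested genes with a length, *Cybb* at rank 194, *Rac2* at 247, *Ncf1* at 333, *Ncf4* at 533, and *Hvcn1* at 4579. All but the proton channel gene were thus among the 3.47% most abundant transcripts. *Cyba* was above *Cybb* in TPM in 9 of 9 libraries, and the lowest *Cyba* level, 1060.1 TPM, was above the highest *Cybb* level, 908 TPM. *Cybb* was above *Rac2* in 8 of 9 libraries. Their ranges were apart with vehicle (663.8 TPM or more against 621.9 TPM or less) and with prednisolone (756 or more against 650.9 or less), and overlapped with spironolactone (595.8 to 663 against 503.9 to 636.7 TPM). *Rac2* was above *Ncf1* in 9 of 9 libraries, and their ranges were apart within each group and overlapped only when libraries of different groups were set side by side. *Ncf1* was clear of *Ncf4*, whose highest level was 340.8 TPM, and *Ncf4* was clear of *Hvcn1* by a mean ratio of 9.61.

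**Figure D1:**
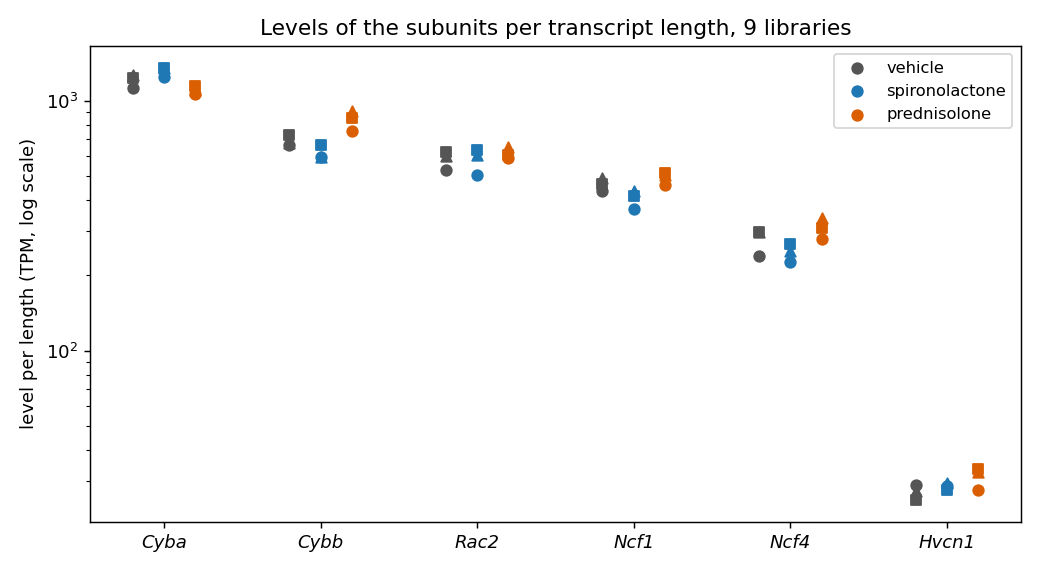
Level per transcript length of each oxidase gene (TPM, log axis) in each of the 9 libraries, with 1 symbol per library colored by group and shaped by replicate number. *Cyba* lies above the others in every library, *Cybb* and *Rac2* overlap over all libraries but within a group only with spironolactone, and *Hvcn1* lies lowest at 25.2 to 33.7 TPM.

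*Cybb* encodes gp91phox (NOX2), the catalytic subunit that carries the heme and flavin. It lies on chromosome X at 9301491 to 9354010 (minus strand, GRCm39, ENSMUSG00000015340.11). Its level was 824.6, 978.3, and 923.5 CPM in vehicle libraries 1, 2, and 3. It was 754.5, 888.6, and 814.6 CPM with spironolactone. It was 958.7, 1035.6, and 1120.1 CPM with prednisolone. The 3 prednisolone libraries were thus the highest but for vehicle 2, which was above prednisolone 1, and all 3 spironolactone libraries lay below all prednisolone libraries. The log2 difference of spironolactone from prednisolone was -0.34 ± 0.10 (SE, n = 3 libraries per group, 95% interval -0.56 to -0.12), which did not pass the edgeR test (unadjusted p = 0.00535, adjusted p = 0.0721). Against vehicle, prednisolone gave 0.19 ± 0.10 (interval -0.03 to 0.41, adjusted p = 0.437 by edgeR) and spironolactone gave -0.15 ± 0.10 (interval -0.37 to 0.07, adjusted p = 0.711), and both overlapped the vehicle range.

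*Cyba* encodes p22phox, the membrane partner that stabilizes gp91phox and offers the docking site for the organizer. It lies on chromosome 8 at 123150422 to 123159706 (minus strand, GRCm39, ENSMUSG00000006519.13). Its level was 553.7, 661.7, and 686 CPM in the vehicle libraries. It was 625.6, 718.5, and 735.7 CPM with spironolactone. It was 532.9, 554.4, and 539.9 CPM with prednisolone, the tightest group of any subunit, with a coefficient of variation of 2.02%. Every spironolactone library was above every prednisolone library, and vehicle 1 fell inside the prednisolone range. The log2 difference of spironolactone from prednisolone was 0.35 ± 0.10 (SE, n = 3 per group, interval 0.13 to 0.58), with an unadjusted p of 0.00406 and an adjusted p of 0.0635 by edgeR. Prednisolone against vehicle gave -0.23 ± 0.10 (interval -0.45 to -0.004), with an unadjusted p of 0.0466 and an adjusted p of 0.341 by edgeR. Spironolactone against vehicle gave 0.13 ± 0.10 (interval -0.09 to 0.35, adjusted p = 0.759 by edgeR).

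These calls between the drugs lay close to the threshold and depended on the fit. DESeq2 on all 9 libraries put both genes past it, with an adjusted p of 0.0131 for *Cybb* and 0.0174 for *Cyba*, while limma-voom put neither past it. Without vehicle 1, which belongs to neither of these groups but shares the estimate of the spread, the edgeR adjusted p was 0.0268 for *Cybb* and 0.0168 for *Cyba*. Without spironolactone 1 it was 0.0439 for *Cyba*. Over all 22 alternative fits the adjusted p ran from 0.00405 to 0.221 for *Cybb* and was past the threshold in 7, and from 0.00306 to 0.221 for *Cyba* and was past it in 8. The direction was the same in all 22 for both genes, and the log2 difference ran from -0.41 to -0.28 for *Cybb* and from 0.30 to 0.42 for *Cyba*. Without vehicle 3 and spironolactone 3, the libraries high in neutrophil genes, the log2 difference was -0.35 for *Cybb* (adjusted p = 0.208 by edgeR) and 0.30 for *Cyba* (adjusted p = 0.221 by edgeR).

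**Figure D2:**
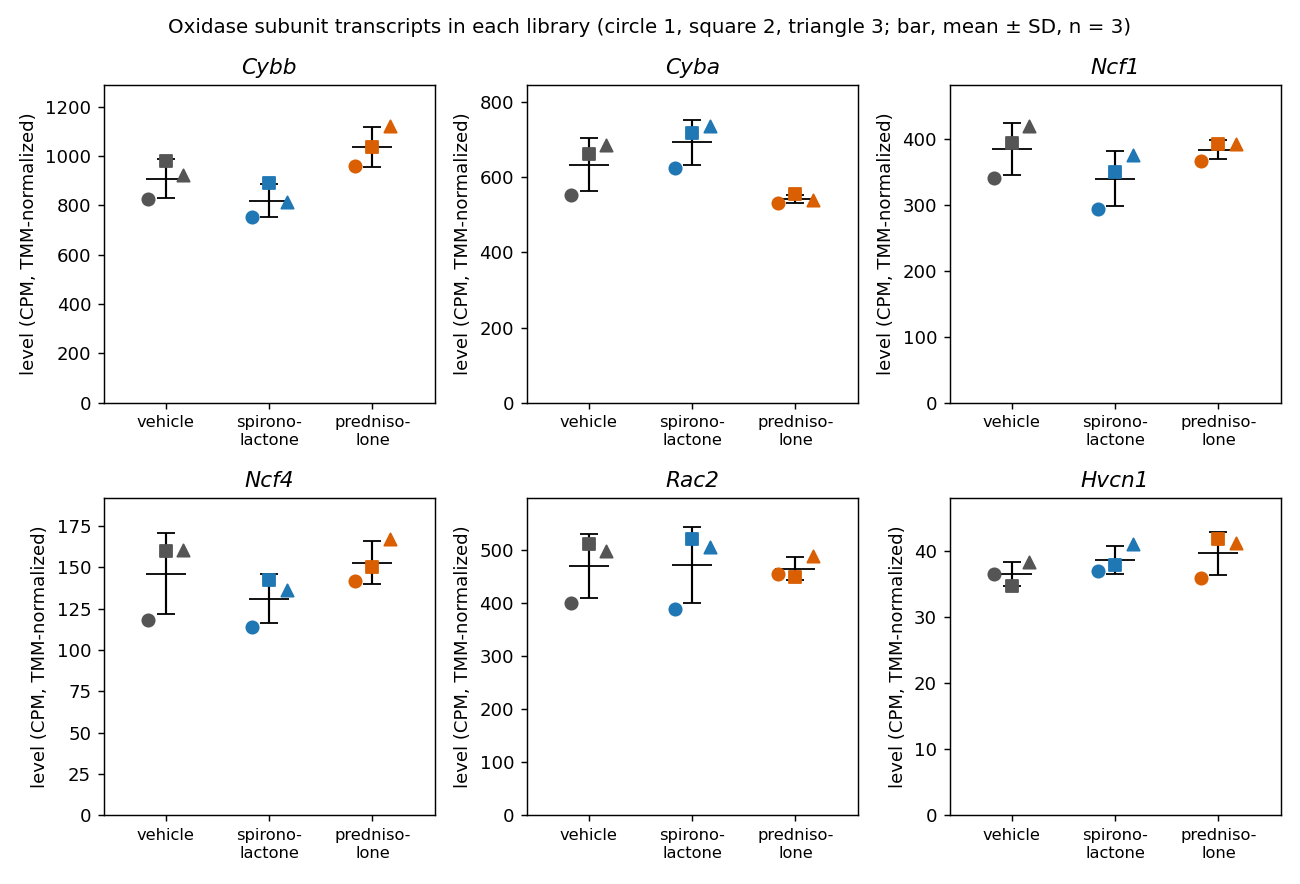
Level of each oxidase gene in CPM (TMM-normalized, vertical axes from 0) in each library of the vehicle, spironolactone, and prednisolone groups, with a bar at the mean and whiskers of 1 SD (n = 3). *Cybb* is lowest with spironolactone and highest with prednisolone on average (819.2, 908.8, and 1038.1 CPM in spironolactone, vehicle, and prednisolone), *Cyba* shows the opposite order (693.3, 633.8, and 542.4 CPM), and the other genes overlap.

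In bulk libraries, fewer cells of a type and less RNA per cell cannot be told apart, and this holds for each of these differences. Some markers moved with the difference between the drugs, where edgeR called 5.17% of all genes tested. Of the 2 genes of the gate, *Itgam*, whose product marks the sorted cells, was also lower with spironolactone than with prednisolone (log2 difference -0.43 ± 0.11, adjusted p = 0.0353 by edgeR), and *Ptprc* was not called (-0.10 ± 0.09, adjusted p = 0.582). The call of *Itgam* was lost without spironolactone 1 or 3 or any prednisolone library (adjusted p 0.0631 to 0.146), with the *Xist* covariate (0.0596), and without vehicle 3 and spironolactone 3 together (0.15). Of 9 macrophage genes, 2 were called, and *C1qb* was higher by 0.62 and *C1qc* by 0.51 with spironolactone, with both calls lost without spironolactone 2 or 3 or prednisolone 1 or 2 (adjusted p 0.0612 to 0.168), and without vehicle 3 and spironolactone 3 together (0.0712 and 0.116). The call of *C1qc* was also lost without vehicle 2 (0.0525), with the *Xist* covariate (0.0593), and with library totals (0.0595). Of the macrophage genes not called by edgeR, *C1qa* (0.48), *Fcgr1* (0.465), and *Cd68* (0.26) were higher on average with spironolactone (adjusted p 0.0799 to 0.167). *Adgre1* (-0.04), *Csf1r* (-0.04), *Mertk* (-0.03), and *Mrc1* (-0.24) were not higher with it (adjusted p 0.312 to 0.959 by edgeR). The macrophage sum was 10195.1 to 11364.2 CPM with spironolactone, 8755.7 to 9479.6 CPM with prednisolone, and 9017.2 to 10644 CPM with vehicle. Of 8 monocyte genes, *Ace* was called (higher by 0.60 with spironolactone, lost without any 1 of the 6 drug libraries at adjusted p 0.0534 to 0.0939 and without vehicle 3 and spironolactone 3 together at 0.0684), and the monocyte sum was 2108.5 to 2515.2, 2742.9 to 3683.2, and 1936.1 to 3413 CPM in these groups. *Chil3* (log2 difference -1.40, adjusted p = 0.0833 by edgeR) and *Vcan* (-1.20, adjusted p = 0.191) of that list were lower in all spironolactone than in all prednisolone libraries and were not called by edgeR, and DESeq2 called 3 and limma-voom 2 of the 8 monocyte genes. Of 7 dendritic cell genes, *H2-Ab1* was called (higher by 0.85 with spironolactone), and the sum was 1127.9 to 1769.9, 860.2 to 976.1, and 961.2 to 1096.7 CPM. Most of that sum was *H2-Ab1* itself, with means of 1449.6, 807.2, and 963.5 CPM. Of the genes of that list not called by edgeR, *Xcr1* (0.83), *Clec9a* (0.57), and *Cd209a* (0.25) were higher with spironolactone. Their adjusted p was 0.0853, 0.129, and 0.553 by edgeR. *Flt3* (0.03), *Zbtb46* (-0.18), and *Ccr7* (-0.20) were not called either (adjusted p 0.658 to 0.922 by edgeR). DESeq2 called 2 of the 7, and 3 had an unadjusted p under 0.05 by edgeR, against 22.5% of all genes. Of 4 globin genes, 3 were called, with a sum of 181 to 299.8 CPM with spironolactone, 36.7 to 77.9 CPM with prednisolone, and 69 to 131.8 CPM with vehicle. Of 3 tested eosinophil genes, 2 were called (*Ccr3*, higher by 1.54 with spironolactone, adjusted p = 0.00205, and *Siglecf*, by 0.65, adjusted p = 0.0217 by edgeR), with sums of 29.6 to 48.2, 17.1 to 21.9, and 37.2 to 64.3 CPM in these groups. Of 3 endothelial genes, 2 were called (*Pecam1*, higher by 1.09, adjusted p = 0.00729, and *Cdh5*, by 1.13, adjusted p = 0.0178), with sums of 96 to 145.2, 55.1 to 76, and 44.3 to 77.3 CPM. Of 4 tested B cell genes (*Cd79a* and *Cd79b*) and of 6 T and NK cell genes (*Nkg7* and *Ncr1*), 2 each were called, all higher with spironolactone. *Ccr3*, *Pecam1*, *Nkg7*, and the globin gene *Hba-a2* kept their calls in all 22 alternative fits. *Siglecf*, *Cdh5*, *Cd79b*, *Ncr1*, *Hba-a1*, and *Hbb-bt* lost theirs without vehicle 3 and spironolactone 3 together (adjusted p 0.0513 to 0.103), without spironolactone 3 (0.0663 to 0.106), and without at least 1 of the prednisolone libraries (0.0533 to 0.132), and *Cd79a* lost its call without prednisolone 2 (0.0554). The skeletal muscle sum was 303.7 to 510, 256.8 to 390.1, and 160.1 to 248.6 CPM, and the fibroblast sum was 311.9 to 463, 316 to 355.6, and 251.2 to 343.6 CPM. Their part in the differences of *Cybb* and *Cyba* was not tested. Of 12 neutrophil genes, edgeR called 0 between the drugs, limma-voom 1, and DESeq2 2, and 5 had an unadjusted p under 0.05 by edgeR, against 22.5% of all genes. The neutrophil sum was 1432.4 to 3716.8 CPM with spironolactone and 835.7 to 1069.4 CPM with prednisolone. Because *Cybb* is on chromosome X and mice of both sexes were used, *Xist*, which is transcribed from the inactive X, was read as well, and it varied from 65.3 to 711.8 CPM within the spironolactone group alone, as wide as the range over all libraries. The paper gives more females for prednisolone than for the other groups, and no sex per pool. With the *Xist* covariate, *Cybb* did not pass the edgeR test in any comparison. Its log2 difference from vehicle was then 0.195 with prednisolone (adjusted p = 0.447 by edgeR) and -0.159 with spironolactone (0.733).

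The starts of the flavocytochrome genes are shown because these subunits differed in opposite directions. The 250 bases before the RefSeq start, read 5′ to 3′ on the gene strand, lie at chrX:9335564-9335813 (minus strand, GRCm39) for *Cybb* and at chr8:123159680-123159929 (minus strand, GRCm39) for *Cyba*. In GENCODE these genes reach beyond the RefSeq start. That of *Cybb* lies 18447 bases inside the annotated gene, whose 5′ end is at 9354010, and 3 of its 5 GENCODE transcripts start within 100 bases of it, so that the window shown lies inside the longer gene model. That of *Cyba* lies 27 bases inside, and all 18 of its transcripts start within 100 bases of it. Capitals mark CCAAT, a box bound by several activating and repressing factors.
Cybb: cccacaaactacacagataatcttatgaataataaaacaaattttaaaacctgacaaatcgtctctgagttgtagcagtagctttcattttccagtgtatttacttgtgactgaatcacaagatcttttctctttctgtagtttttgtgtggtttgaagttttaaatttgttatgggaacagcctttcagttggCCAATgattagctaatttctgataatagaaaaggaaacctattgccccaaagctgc
Cyba: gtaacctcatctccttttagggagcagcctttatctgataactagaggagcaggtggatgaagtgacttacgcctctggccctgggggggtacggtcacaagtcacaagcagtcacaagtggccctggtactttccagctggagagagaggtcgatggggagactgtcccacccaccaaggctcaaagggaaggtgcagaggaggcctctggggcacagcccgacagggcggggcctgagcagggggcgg
The *Cybb* window was 34% G or C with 1 CCAAT that begins 56 bases before the start, and the *Cyba* window was 60% G or C with no CCAAT or ATTGG. Of 32851 RefSeq starts, 33.8% hold CCAAT or ATTGG in the same 250 bases. The core GAGGAA or TTCCTC, the letters of a site for PU.1, was in neither window. With the 50 bases after the start included, as in the table of starts, *Cybb* held 1 TTCCTC just past its start, and 28.3% of starts hold GAGGAA or TTCCTC in these 300 bases. It is shown in capitals with its neighbors at chrX:9335537-9335566 (minus strand, GRCm39).
Cybb start: tgctgttttcatTTCCTCatcagaagaaga
Of the other genes, *Ncf1* was in the table, with no match of the PU.1 core in its 300 bases. A match of letters says nothing of binding in these cells.

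*Ncf1* encodes p47phox, the organizer that is phosphorylated on activation and brings the cytosolic subunits to p22phox. It lies on chromosome 5 at 134248907 to 134258479 (minus strand, GRCm39). Its level was 340.9, 394.2, and 418.8 CPM with vehicle, 293.3, 350.3, and 375.6 CPM with spironolactone, and 366.8, 392.5, and 391.9 CPM with prednisolone. Spironolactone 1 and 2 were among the lowest, but spironolactone 3 lay inside both other ranges. The log2 difference from vehicle was -0.003 ± 0.11 with prednisolone (interval -0.24 to 0.23, adjusted p = 0.993 by edgeR) and -0.18 ± 0.11 with spironolactone (interval -0.41 to 0.06, adjusted p = 0.663). The drugs differed by -0.18 ± 0.11 (spironolactone against prednisolone, interval -0.41 to 0.06, adjusted p = 0.366).

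*Ncf4* encodes p40phox, which binds phosphatidylinositol 3-phosphate on the phagosome. It lies on chromosome 15 at 78128982 to 78146784 (plus strand, GRCm39) and overlaps no other annotated gene. Its level was 117.9, 159.6, and 160.7 CPM with vehicle, 114.1, 142.6, and 136.5 CPM with spironolactone, and 141.4, 150, and 167 CPM with prednisolone. Vehicle 1 and spironolactone 1 stood lowest, and the vehicle group had the widest relative spread of any subunit, with a coefficient of variation of 16.7%. The log2 difference from vehicle was 0.07 ± 0.13 with prednisolone (interval -0.21 to 0.34, adjusted p = 0.871 by edgeR) and -0.16 ± 0.13 with spironolactone (interval -0.43 to 0.12, adjusted p = 0.763). Spironolactone against prednisolone gave -0.22 ± 0.13 (interval -0.49 to 0.05, adjusted p = 0.326).

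*Rac2* encodes the Rac GTPase of blood cells, which binds the assembled complex in its GTP form. It lies on the same chromosome 15 at 78443367 to 78457429 (minus strand, GRCm39). Its level was 401.3, 511.5, and 498 CPM with vehicle, 389.1, 520.9, and 505.5 CPM with spironolactone, and 455.8, 450.1, and 490 CPM with prednisolone. Libraries 1 of vehicle and of spironolactone were the lowest, and the prednisolone range lay inside the other ranges. The log2 differences were -0.02 ± 0.12 for prednisolone against vehicle, 0.005 ± 0.12 for spironolactone against vehicle, and 0.02 ± 0.12 for spironolactone against prednisolone, with adjusted p from 0.952 to 0.995 by edgeR. The widest interval bound was 0.28 in size, so that a difference of that size is not excluded by the intervals.

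*Hvcn1* encodes the voltage-gated proton channel that carries out the charge and acid left by the electron transfer. It lies on chromosome 5 at 122344867 to 122382736 (plus strand, GRCm39). Its level was 36.6, 34.7, and 38.3 CPM with vehicle, 37, 37.9, and 41 CPM with spironolactone, and 35.9, 41.8, and 41.2 CPM with prednisolone. Prednisolone 2 and 3 and spironolactone 3 were the highest, but prednisolone 1 lay inside the vehicle range. The log2 differences were 0.12 ± 0.09, 0.08 ± 0.09, and -0.04 ± 0.09 for prednisolone against vehicle, spironolactone against vehicle, and spironolactone against prednisolone, with adjusted p of 0.629, 0.862, and 0.87 by edgeR.

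The oxidase genes had 1112 (*Hvcn1*) to 37716 (*Cybb*) counts per library, which gives an expected counting error of 0.578% for *Cybb* and 2.84% for *Hvcn1*. The coefficients of variation of *Hvcn1* on the CPM scale were 4.9%, 5.49%, and 8.26% with vehicle, spironolactone, and prednisolone. Counting error was thus a larger part of its spread with vehicle and spironolactone than with prednisolone. On the CPM scale, part of the spread between libraries was shared by these genes. Library 1 was the lowest of its group for 5 of 6 genes with vehicle, 6 of 6 with spironolactone, and 5 of 6 with prednisolone, and it was the highest for none. This depended on the scale. In TPM, spironolactone 3 was the lowest for *Cybb* (595.8 against 596.4 in spironolactone 1) and spironolactone 2 for *Hvcn1* (27.7 against 28.6). Vehicle 1 was then the highest of its group for *Hvcn1* (28.9 TPM). The share over all genes was not taken. Counting without regard to strand cannot tell overlapping genes apart, and the strand setting is not given in the sources used here. Of the genes on the opposite strand, 4 had a low level of their own, with *Xk* (beside *Cybb*) at 0.78 to 2.78 CPM, *Il17c* (beside *Cyba*) at 0.734 to 1.9 CPM, *Gtf2ird2* (beside *Ncf1*) at 11.5 to 16.4 CPM, and *Tctn1* (beside *Hvcn1*) at 5.05 to 9.2 CPM. *Gm63166*, which overlaps exons of *Rac2*, was not analysed here.

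**Figure D3:**
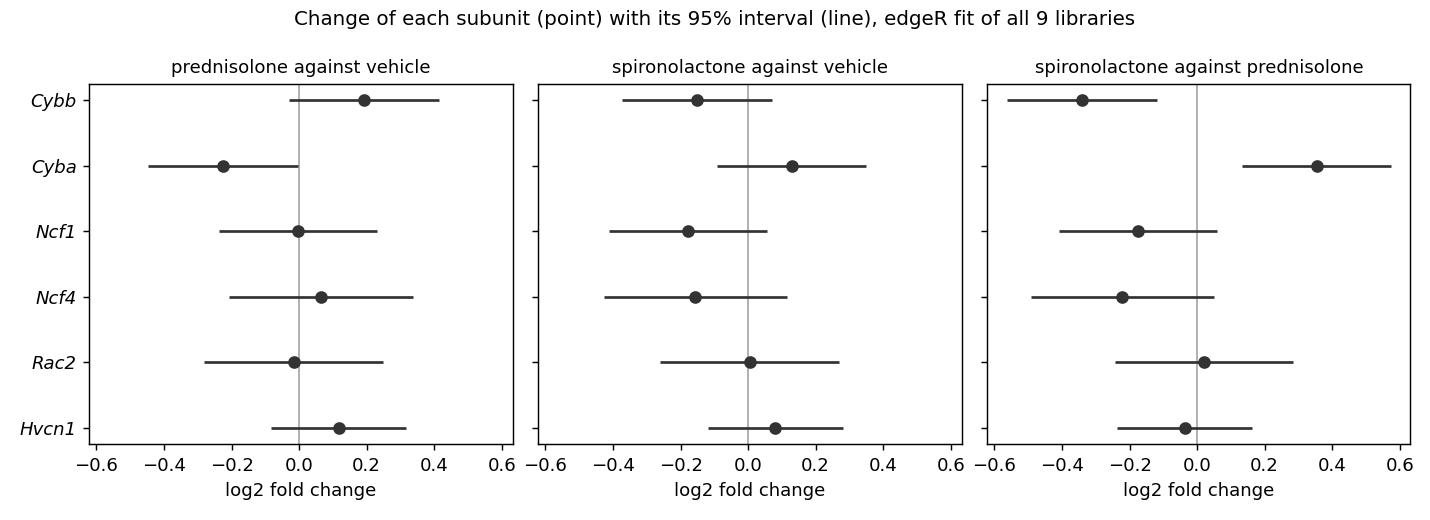
Log2 fold change of each oxidase gene (points) with its 95% interval (lines) in the 3 comparisons, from the edgeR fit of all 9 libraries. Between the drugs, the intervals of *Cybb* (-0.56 to -0.12) and *Cyba* (0.13 to 0.58) lie on opposite sides of 0, and against vehicle only that of *Cyba* with prednisolone stays off 0, by 0.004.

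Counts of oxidase genes are given beside those over all genes. For prednisolone against vehicle, 0 of 6 passed edgeR, DESeq2, or limma-voom, where edgeR called 1.76% and DESeq2 4.64% of all genes tested, and 1 of 6 (*Cyba*) had an unadjusted p under 0.05 against 14.2% of all genes. For spironolactone against vehicle, 0 of 6 passed any of these 3 tools, where edgeR called 0.0181% and DESeq2 1.67% of all genes, and 0 of 6 had an unadjusted p under 0.05 against 9.29%. For spironolactone against prednisolone, 0 of 6 passed edgeR and limma-voom and 2 passed DESeq2, where edgeR called 5.17% and DESeq2 10% of all genes, and 2 of 6 had an unadjusted p under 0.05 against 22.5%. In CPM the same 2 genes did not overlap between the drugs, which was so for 30.3% of all genes, and no oxidase gene was clear of vehicle in either comparison, against 19.7% of all genes for prednisolone and 13.5% for spironolactone. This depended on the scale. In TPM, 1 of 6 (*Cybb*) was clear of vehicle with prednisolone (21.2% of all genes with a length) and with spironolactone (13%), and 4 of 6 (*Cybb*, *Cyba*, *Ncf1*, and *Ncf4*) were apart between the drugs (32.9%). The median log2 difference over all genes in TPM was shifted from that in CPM by 0.09 for prednisolone against vehicle, -0.008 for spironolactone against vehicle, and -0.10 between the drugs. The median log2 difference over the 6 genes was 0.03, -0.07, and -0.11 in these comparisons, beside -0.01, 0, and 0.03 over all genes tested. The comparisons share libraries, since the vehicle group served for both drugs, so that their values are not independent.

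The balance between the membrane subunits was a further description, chosen after the values had been seen, and it received no test. The ratio of *Cybb* to *Cyba* within a library, from TPM, was 0.59, 0.586, and 0.534 with vehicle. It was 0.478, 0.49, and 0.439 with spironolactone, and 0.713, 0.74, and 0.822 with prednisolone. No library of any group entered the range of another group. In CPM each gene alone overlapped with vehicle, whereas in TPM *Cybb* alone was also apart in all groups, with the nearest libraries at 663 TPM (spironolactone 2) and 663.8 TPM (vehicle 1). The group means were 0.57 ± 0.0316, 0.469 ± 0.0268, and 0.759 ± 0.0569 (SD, n = 3) for vehicle, spironolactone, and prednisolone. A ratio within a library does not depend on the normalization of the library, and it shows unequal change, not which gene changed.

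**Figure D4:**
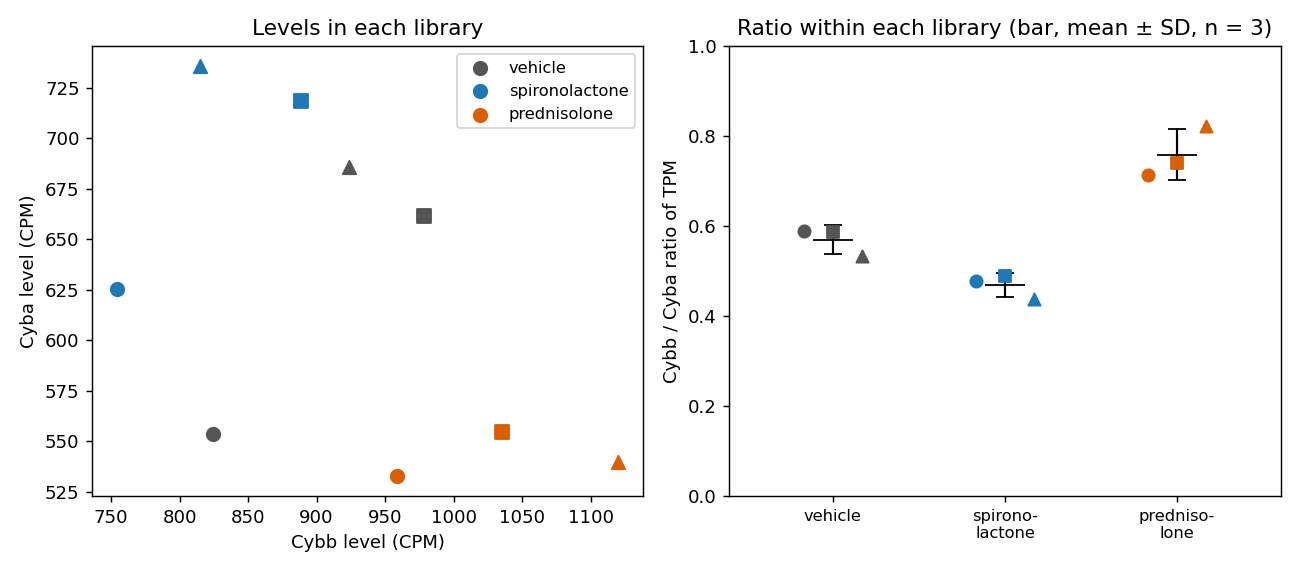
Left, level of *Cyba* against level of *Cybb* (CPM, axes not from 0) in each library, and right, ratio of *Cybb* to *Cyba* from TPM in each library with a bar at the mean and whiskers of 1 SD (n = 3), colored by group and shaped by replicate number. The ratio is 0.439 to 0.49 with spironolactone, 0.534 to 0.59 with vehicle, and 0.713 to 0.822 with prednisolone, so that the groups do not overlap.

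Among the 15 pairs that the 6 genes form, 3 kept all groups apart in this way, and all 3 hold *Cyba*. Besides *Cybb*, these were *Ncf1* and *Ncf4*. The ratio of *Cyba* to *Ncf1* was 2.58 to 2.67 with vehicle, 3.11 to 3.39 with spironolactone, and 2.19 to 2.31 with prednisolone. The ratio of *Cyba* to *Ncf4* was 4.15 to 4.71, 5.05 to 5.5, and 3.24 to 3.78 in the same groups. In single comparisons, 7 of 15 pairs were apart between prednisolone and vehicle, 6 between spironolactone and vehicle, and 12 between the drugs. Over all 37493470 pairs of tested genes with a mean of at least 10 CPM, 24.5%, 13.6%, and 38.1% were apart in these comparisons and 2.62% were apart in all 3. The pairs share genes, and 5 of the 15 hold *Cyba*, so that they are not independent.

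The patterns of the subunits over the 9 libraries were compared by the root mean square difference of log2 CPM after each gene was centered on its mean. The organizers *Ncf1* and *Ncf4* were the closest pair at 0.084, and *Cybb* lay nearer to *Ncf4* (0.095) and *Ncf1* (0.119) than to *Rac2* (0.165) or *Hvcn1* (0.167). *Cybb* and *Cyba*, whose products form 1 heterodimer, were the farthest pair at 0.294. By the same measure over 8659 other genes, the nearest to *Cybb* were *Pqlc3* (0.043), *Camkk2*, and *Cbfb*, and the nearest to *Cyba* were *Cwc15* (0.045), *Sf3b5*, and *Sirt7*. Those nearest to *Ncf1* were *Ppp3r1* (0.053), *Zfp869*, and *Tmco1*, and those nearest to *Ncf4* were *Jagn1* (0.056), *Nadk*, and *Macir*. *Rasgrp4* (0.045), *Ints12*, and *Brk1* were nearest to *Rac2*, and *Dnajc9* (0.045), *Dhrs7b*, and *Akr1e1* to *Hvcn1*. Likeness over 9 libraries is a description of these values alone.

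Other genes around the oxidase were read from lists. Of 3 further components, *Rac1*, the ubiquitous Rac GTPase, *Rap1a*, a small GTPase found with the flavocytochrome, and *Cybc1*, a chaperone needed for flavocytochrome protein, 0 passed edgeR, DESeq2, or limma-voom in any comparison, and 0 had an unadjusted p under 0.05 by edgeR. Over all genes edgeR called 1.76%, 0.0181%, and 5.17% for prednisolone against vehicle, spironolactone against vehicle, and between the drugs, and 14.2%, 9.29%, and 22.5% had an unadjusted p under 0.05. *Rac1* had a mean of 549.1 ± 17.2 CPM with vehicle, 528.7 ± 32.2 with spironolactone, and 572.4 ± 11 with prednisolone (SD, n = 3). *Cybc1* had 78 ± 5.92, 80.7 ± 9.8, and 79.4 ± 3.23 CPM, and *Rap1a* had 130.6 ± 26.5, 123.6 ± 2.63, and 117.7 ± 5.93 CPM. Of 17 upstream signaling genes, 1 passed between the drugs by edgeR, where 5.17% of all genes were called. *Prkcb*, which encodes a protein kinase C that phosphorylates p47phox, was lower with spironolactone (90.9 ± 13.4 CPM) than with prednisolone (122 ± 8.01 CPM), by a log2 difference of -0.42 ± 0.11 (SE, adjusted p = 0.0347 by edgeR), the same direction as *Cybb*. The call was lost without spironolactone 1 or 3 or any prednisolone library (adjusted p 0.074 to 0.142), with the *Xist* covariate (0.0548), and without vehicle 3 and spironolactone 3 together (0.136). A link between *Prkcb* and *Cybb* was not tested. Against vehicle, 0 of the 17 passed edgeR, DESeq2, or limma-voom, where edgeR called 1.76% (prednisolone) and 0.0181% (spironolactone) of all genes. An unadjusted p under 0.05 was found for 1 (prednisolone) and 0 (spironolactone) of them, against 14.2% and 9.29% of all genes.

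The transcription factors known for control of oxidase genes held both of the related genes that edgeR called for prednisolone against vehicle, 2 of 6 factors, where 1.76% of all genes were called. *Cebpb*, a factor of inflammatory myeloid genes, fell by 0.86 ± 0.15 on the log2 scale with prednisolone (661.8 ± 89.9 against 1203.4 ± 209.4 CPM, adjusted p = 0.0108 by edgeR). *Irf1*, an interferon response factor, fell by 0.49 ± 0.09 (63.7 ± 1.88 against 89.2 ± 3.24 CPM, adjusted p = 0.0122). The call of *Cebpb* was lost without prednisolone 2 (0.0857) or prednisolone 3 (0.0557), and that of *Irf1* without prednisolone 2 (0.0985), prednisolone 3 (0.0568), or vehicle 2 (0.0527). Eosinophil genes were lower with prednisolone as well, with 2 of 3 tested genes called and sums of 17.1 to 21.9 CPM against 37.2 to 64.3 CPM with vehicle. *Ccr3* fell by 1.198 on the log2 scale (5.47 ± 1.10 against 12.6 ± 2.17 CPM, adjusted p = 0.0128 by edgeR) and *Siglecf* by 0.65 (0.0377), and *Ccr3* lost its call without prednisolone 1 (0.0615) or prednisolone 2 (0.0998). *Siglecf* lost its call without any 1 prednisolone library (0.108 to 0.157), without vehicle 2 (0.139), vehicle 3 (0.0728), or spironolactone 3 (0.0546), without vehicle 3 and spironolactone 3 together (0.0979), and with limma-voom (0.0584). Of the other marker lists, edgeR called 0 genes in this comparison, but DESeq2 called 1 of 12 neutrophil, 2 of 7 dendritic cell, 1 of 6 T and NK cell, and 1 of 4 globin genes, where it called 4.64% of all genes. By edgeR, 4 of 12 neutrophil, 2 of 9 macrophage, 1 of 8 monocyte, 3 of 7 dendritic cell, 3 of 4 B cell, 1 of 6 T and NK cell, 1 of 4 skeletal muscle, and 2 of 4 globin genes had an unadjusted p under 0.05, against 14.2% of all genes. The part of these markers in the differences of *Cebpb* and *Irf1* was not tested. DESeq2 called *Irf8* as well, which was lower in all prednisolone than in all vehicle libraries (213.7 ± 12.8 against 265.9 ± 16.9 CPM, log2 difference -0.32 ± 0.09, adjusted p = 0.1 by edgeR). Between the drugs, *Irf1* (log2 difference 0.48 ± 0.09, adjusted p = 0.00781) and *Irf8*, a factor of the monocyte lineage (0.45 ± 0.09, adjusted p = 0.0129), were higher with spironolactone. Without prednisolone 2 the adjusted p was 0.0501 for *Irf1* and 0.0773 for *Irf8*, and for *Irf8* it was 0.0633 without prednisolone 1, 0.0663 without spironolactone 3, and 0.0693 without vehicle 3 and spironolactone 3 together. The direction of *Irf1* and *Irf8* was that of *Cyba* and not of *Cybb*, and a link of these factors to either gene was not tested. The other 4 of the 6 factors, among them *Spi1*, which encodes PU.1 (580.5 to 624.2 CPM as group means), were not called between the drugs by edgeR, and DESeq2 called *Cebpb* as well. For spironolactone against vehicle, 0 of 6 passed edgeR, DESeq2, or limma-voom, where edgeR called 0.0181% and DESeq2 1.67% of all genes, and 1 had an unadjusted p under 0.05, against 9.29%. Over the list the median log2 difference was -0.40 for prednisolone against vehicle, -0.02 for spironolactone against vehicle, and 0.47 between the drugs, beside the medians over all genes given above.

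Of 22 genes listed around the removal of superoxide and peroxide, not all of them for enzymes, edgeR called 3 between the drugs. It called 5.17% of all genes there, and 7 of the 22 had an unadjusted p under 0.05, against 22.5% of all genes. Against vehicle, edgeR and limma-voom called 0 and DESeq2 called 1 for prednisolone (*Srxn1*) and 1 for spironolactone (*Txnrd1*), where 6 and 3 had an unadjusted p under 0.05 by edgeR, against 14.2% and 9.29% of all genes. *Srxn1*, sulfiredoxin, which repairs oxidized peroxiredoxins, was lower with spironolactone than with prednisolone (35.6 ± 5.55 against 56.7 ± 0.459 CPM, log2 difference -0.67 ± 0.11, adjusted p = 0.00587). *Txnrd1*, thioredoxin reductase, was lower as well (85.6 ± 2.39 against 119.7 ± 12.7 CPM, log2 difference -0.48 ± 0.09, adjusted p = 0.0103). *Gpx4*, which reduces lipid peroxides, was higher with spironolactone (156.6 ± 13 against 118.4 ± 9.26 CPM, log2 difference 0.40 ± 0.10, adjusted p = 0.0304). The call of *Txnrd1* was lost without prednisolone 1 (0.0531), and that of *Gpx4* without spironolactone 2 or 3 or any prednisolone library (0.0594 to 0.131) and without vehicle 3 and spironolactone 3 together (0.133). That of *Srxn1* was kept in all 22 alternative fits. The 3 called genes thus differed in both directions, and the median of the list was -0.02 between the drugs.

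No gene of the remaining lists passed edgeR or limma-voom, and DESeq2 called *Mpo* alone. Of 7 genes for NADPH supply, 1 had an unadjusted p under 0.05 between the drugs, against 22.5% of all genes, and 0 against vehicle, against 14.2% for prednisolone and 9.29% for spironolactone. The 2 highest of them, *Tkt* and *Pgd* of the pentose phosphate pathway, had group means of 520.6 to 537.5 CPM and 296.1 to 323.7 CPM. Of 9 genes of other NOX and DUOX oxidases, 2 had enough counts to be tested, and 0 had an unadjusted p under 0.05. *Nox4* and *Noxo1* had group means of 0.654 to 0.976 CPM and 1.01 to 1.42 CPM. Of 4 genes of enzymes that use the oxidant or make other radicals, 2 were tested. *Mpo*, myeloperoxidase of neutrophil granules, was at 2.58, 0.499, and 32.3 CPM with vehicle, 11.8, 10.7, and 21 CPM with spironolactone, and 0, 0.397, and 0.0297 CPM with prednisolone. Vehicle 3, which was high in neutrophil genes, thus held most of the vehicle level, and every prednisolone library was below every other library. *Mpo* was not called by edgeR (adjusted p = 0.23 for prednisolone against vehicle and 0.12 between the drugs), and its unadjusted p was 0.019 and 0.0156. *Nos2*, inducible nitric oxide synthase, stayed at group means of 0.416 to 0.728 CPM.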

How the data were processed

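RNA of CD45+CD11b+ quadriceps cells was measured by RNA-Seq in 9 libraries, 3 per group. The deposited counts are whole numbers per gene without normalization, which the authors made by alignment to mm39 with HISAT2 2.2.1 and counting with HTSeq 0.11.3. The versions are from the submitters' processing notes, and the annotation release and strand setting are not given in the sources used here. The deposited tables of 3 comparisons hold fold changes and p-values of DESeq2 1.32.0 and were not used. Lines that name no gene (17.22% to 21.76% of a library) were left out. The labels do not name a batch.

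In R 4.3.3, 16618 genes passed filterByExpr (minimum count 10, minimum total 15) and were fitted with edgeR 4.0.16 (TMM, glmQLFit with robust=TRUE, all 9 libraries, two-sided quasi-likelihood F test, Benjamini-Hochberg adjustment over all genes tested, threshold 0.05). Standard errors and 95% intervals are from that fit. Levels are TMM-normalized CPM. TPM used the summed exon length of GENCODE vM39 genes (40043 symbols with 1 gene of the name, which took 90.9% or more of each library), and positions are from that annotation on GRCm39. RefSeq starts came from a table on an older build and were placed in GRCm39 by exact match.

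The 6 genes and all lists were chosen with earlier results of these data known. Of each related list, the text names up to 4 called genes in order of adjusted p, or the 2 with the highest CPM where none was called, and the 3 further oxidase components always. For likeness, the 3 nearest genes with a mean of at least 10 CPM were named. The CCAAT search was added after the sequences had been seen. The result of 1 gene of the lists is not reported here. Alternatives were DESeq2 1.42.0 and limma-voom (limma 3.58.1), either count tool on the 2 compared groups alone, 3 other normalizations (library totals, RLE, upper quartile), 2 other filters, glmQLFit without robust=TRUE, an *Xist* covariate, a replicate block, the omission of each library, and, chosen after seeing the data, vehicle 3 and spironolactone 3 left out together and TPM in place of CPM for the overlap of groups.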

Additional observations from a re-analysis of the deposited data

How the results depend on the processing

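The 6 oxidase genes in 3 comparisons were refitted under 22 alternatives each, and in 346 of 396 cases the direction and the side of the threshold were kept. Between the drugs, *Cybb* passed the threshold at -0.353 (DESeq2 on all libraries), -0.355 (DESeq2 on 2 groups), -0.349 (edgeR on 2 groups), -0.38 (library totals), and -0.358 (no filter), and *Cyba* at 0.343, 0.341, and 0.347 with the same tools, 0.375 (upper quartile), and 0.338 (no filter). The number of oxidase genes past the threshold between the drugs was then 2 (DESeq2 on all libraries, DESeq2 on 2 groups, edgeR on 2 groups, no filter) or 1 (upper quartile, library totals), instead of 0. With each library left out it was 0 to 2, with -0.406 to -0.285 for *Cybb* and 0.308 to 0.422 for *Cyba*. The replicate numbers did not pair the libraries (correlation of deviations -0.038 to 0.151 for equal numbers, -0.168 to 0.044 for others, and 4 of 9 libraries nearest to their own number). With a replicate block, *Cybb* was at -0.343 and *Cyba* at 0.349 between the drugs, both past the threshold, which makes 2 calls. The block took the marker genes *C1qc* (adjusted p = 0.0511), *Cdh5* (0.0597), and *Hba-a1* (0.0761) out of the calls between the drugs by edgeR.

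Values near 0 changed sign in 35 of the 396 cases. For prednisolone against vehicle, *Ncf1* was at 0.001 (limma-voom), 0.004 (upper quartile), 0.024 (library totals), 0.014 (no filter), 0.003 (replicate block), 0.003 (*Xist* covariate), and 0.067 (vehicle 3 and spironolactone 3 left out), and *Rac2* at 0.013 (library totals), 0.002 (no filter), and 0.032 (vehicle 3 and spironolactone 3 left out). For spironolactone against vehicle, *Rac2* was at -0.004 (DESeq2 on all libraries), -0.001 (DESeq2 on 2 groups), -0.003 (RLE), -0.006 (library totals), -0.023 (*Xist* covariate), and -0.009 (vehicle 3 and spironolactone 3 left out). Between the drugs, *Rac2* was at -0.018 (library totals), -0.016 (*Xist* covariate), and -0.041 (vehicle 3 and spironolactone 3 left out). With each library left out, the values were -0.083 to 0.066 for *Ncf1*, -0.068 to 0.143 for *Ncf4*, and -0.117 to 0.05 for *Rac2* (prednisolone against vehicle), -0.099 to 0.126 for *Rac2* (spironolactone against vehicle), and -0.058 to 0.141 for *Rac2* and -0.105 to 0.001 for *Hvcn1* (between the drugs).

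Related genes past the threshold numbered 2 for prednisolone against vehicle, but 5 (DESeq2 on all libraries), 6 (DESeq2 on 2 groups), and 8 (no filter), and 0 to 6 with each library left out. For spironolactone against vehicle they numbered 0, but 1 with DESeq2 on all libraries and 1 with no filter. Between the drugs they numbered 6, but 12 with DESeq2 on 2 groups and 12 with no filter, and 2 to 9 with each library left out. Over all genes, edgeR called 293, 3, and 859 in these comparisons, DESeq2 684, 266, and 1595, and edgeR with no filter 1019, 528, and 1940. With each library left out the counts were 69 to 826, 0 to 34, and 232 to 1898. The order of the levels per length was kept in each alternative. Fewer samples and other sets of tested genes enter some of these fits, and otherwise the cause was not tested. In TPM in place of CPM, the oxidase genes whose groups did not overlap numbered 1 for prednisolone against vehicle, 1 for spironolactone against vehicle, and 4 between the drugs, in place of 0, 0, and 2.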
